A study of Sus scrofa with 88 samples.

Results

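JUN, the gene of the AP-1 protein c-Jun, was read by 1 of the 178 spots with a gene symbol on a 2-color pig oligonucleotide array of 20736 spots. The spot was found by its symbol in the array's probe annotation, where the named spots covered 175 genes. Each of 88 arrays compared loin (longissimus dorsi) muscle RNA of a pair of same-sex littermates from a Duroc x Pietrain F2 cross, giving 176 pigs from 44 litters. In 20 litters the paired pigs were the extremes for backfat depth at the 10th rib (BF: 20 female and 20 male pairs), and in 24 litters those for loin muscle area (LMA: 24 female and 24 male pairs). Each pair set a high pig against a low one for the trait, all came from the same cross, and neither group had a treatment or a modified allele. The pigs were sampled at slaughter, at a market age that the study's methods give as a mean for the cross and the labels do not give per pig. JUN was chosen by its mean difference between high and low pigs of BF litters, so that difference is given below as a description, with no test.

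As background, c-Jun binds DNA as a dimer, with itself or with FOS and ATF family proteins, at AP-1 sites in promoters and enhancers. JUN is an immediate early gene, whose RNA rises and fades quickly after growth factors, mechanical load, injury or stress, and c-Jun protein is activated by the JNK kinases. In skeletal muscle of rodents and humans, JUN RNA is known to respond to exercise and damage. In adipose tissue and liver of mice, the pathway is studied for its part in obesity and insulin resistance.

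The values are log2 ratios within an array, so they give differences between littermates and no levels in single pigs. The markers of muscle could therefore not be checked as levels. The numerator of the ratio is not named in the sources used here. Mean ratios of LMA and BF arrays correlated over spots at 0.938 when each array was written in dye order and at -0.0748 as they stand. On 88 of 88 arrays the number of digits of the values also went with the label of the high animal. The ratios were therefore read in 1 fixed order of high and low pig on all arrays. If that order is the other one, the signs of all ratios, coefficients and sex differences below change together. The correlations with JUN and those between the pairs of a litter keep their signs. In bulk tissue, a change in the number of cells of a type and a change of RNA per cell cannot be told apart. Each array was centred, with a median from -0.01 to 0.01, and its SD over spots ran from 0.133 to 0.66 with a median of 0.222. The 4 arrays with an SD above 0.4 were all from LMA litters. The number of arrays limits the precision. Intensities were not analysed here, so whether JUN or any other spot lay near the background is not known.

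The ratio of JUN varied more over the arrays than that of most spots. Over the 88 arrays its log2 ratio ran from -1.57 to 1.60 with a median of 0.08, and it was above 0 on 52 arrays. The difference between the littermates went beyond 2-fold on 9 arrays, and on 7 of them the ratio was positive. On 22 arrays it was beyond 1.5-fold. After the terms for dye and trait were removed, the residual SD of JUN was 0.47 on the log2 scale, against 0.14 for the median spot. That placed JUN above 95.2% of all spots, control spots included, and 10 of the other named spots had a larger spread. Each pair was read on a single array, so differences between pigs and measurement noise cannot be told apart in this spread. On the 4 arrays of widest ratios JUN was at -0.25 in the female pair of litter 54, at -0.30 in that of litter 32, at 0.74 in that of litter 12 and at -0.04 in the male pair of litter 56. None of these was among the 3 highest or the 3 lowest JUN ratios of LMA litters.

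In BF litters the JUN ratio ran from -1.09 to 1.60 with a median of 0.19, and it was above 0 on 29 of 40 arrays. The mean was 0.27 ± 0.50 (SD, n = 40 arrays), and 6 arrays lay beyond 2-fold. Most pairs thus had the same sign, but the spread was larger than the mean. Female pairs had a mean of 0.36 ± 0.52 (SD, n = 20) with a range of -0.26 to 1.60, a median of 0.21 and 15 arrays above 0. Male pairs had a mean of 0.17 ± 0.48 (SD, n = 20) with a range of -1.09 to 1.09, a median of 0.19 and 14 arrays above 0. The values of female and male pairs overlapped over most of their range.

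The litters of backfat pairs differed widely. Litter 122 stood highest, with ratios of 1.60 in the female and 1.02 in the male pair. Litter 88 had the lowest mean, with 0.23 in the female and -1.09 in the male pair. Both pairs were above 0 in 10 of 20 litters and both were below 0 in 1, litter 139, at -0.23 and -0.22. In the remaining litters the signs were mixed, in 5 with the female pair above 0 and in 4 with the male pair above 0. Some other high ratios stood beside a clearly positive pair, as in litter 97 (0.88 in females and 0.38 in males), litter 131 (0.74 and 0.46) and litter 123 (0.29 and 0.79). Others stood beside a pair near or below 0. The female pair of litter 109 was at 1.10 and the male pair at -0.06, and in litter 93 the values were 1.02 and -0.35. In litter 100 it was the male pair that stood high, at 1.09, with the female pair at 0.10. Litter means ran from -0.43 to 1.31 with a median of 0.21, and 17 of 20 were above 0. Their mean was 0.27 ± 0.38 (SD, n = 20 litters).

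In LMA litters the ratios lay on both sides of 0. They ran from -1.57 to 1.59 with a median of -0.03, and 23 of 48 arrays were above 0. The mean was 0.0034 ± 0.56 (SD, n = 48 arrays), and 3 arrays lay beyond 2-fold. The spread was thus as wide as in BF litters, around a mean near 0, and the values of both traits overlapped. The highest ratio was that of the male pair of litter 54, whose female pair was at -0.25, and the lowest that of the female pair of litter 13, whose male pair was at 0.14. In litter 10 the pairs lay far apart, at -0.93 in females and 0.97 in males. Both pairs were above 0 in 4 litters and below 0 in 5, and in 11 of the 24 litters only the male pair was above 0. Litter means ran from -0.72 to 0.67, with a mean of 0.0034 ± 0.33 (SD, n = 24 litters). The median distance between the pairs of a litter was 0.58 in LMA and 0.46 in BF litters.

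**Figure D1:**
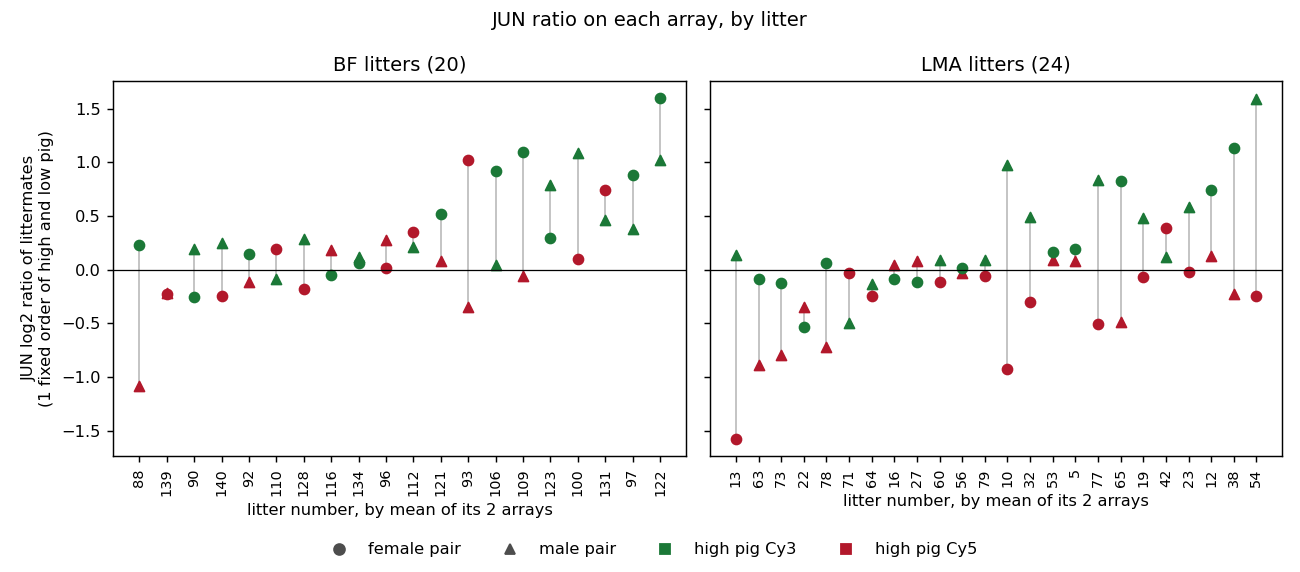
The log2 ratio of JUN between littermates (vertical axis) is plotted for each array against litter number, with litters ordered by their mean, for 20 BF and 24 LMA litters. Circles are female and triangles male pairs, colors give the dye of the high pig, and grey lines join the pairs of a litter; 17 of 20 BF litter means and 13 of 24 LMA litter means lie above 0.

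The ratio of JUN followed the dye. Cy3 and Cy5 are the fluorescent labels of a pair, and the high pig carried Cy3 on 47 arrays and Cy5 on 41. In LMA litters the mean was 0.29 ± 0.52 (SD, n = 24) with Cy3 on the high pig and -0.28 ± 0.44 (SD, n = 24) with Cy5, and 17 and 6 arrays were above 0. In BF litters it was 0.44 ± 0.47 (SD, n = 23) with Cy3, with 20 arrays above 0, and 0.03 ± 0.46 (SD, n = 17) with Cy5, with 9 above 0. The ratio was thus shifted in the same direction by the dye in both traits. Turned to the order of the dyes, it was above 0 on 25 of 88 arrays. In the limma fit over all spots, with terms for dye, LMA and BF, the dye coefficient of JUN was -0.25 (standard error 0.05, 95% interval -0.35 to -0.15, adjusted p = 9.47e-06). Which dye it favors is unknown while the order of the ratio is. Passing for dye was common: 12673 of 20736 spots (61.1%) did, 6312 of them with a negative coefficient, as did 119 of the 178 named spots. The size of the JUN coefficient was above that of 97.2% of spots, and 15 named spots had a larger one. The BF arrays, by which JUN was chosen, had unequal numbers of high pigs with Cy3 and Cy5, so this test is not fully independent of that choice. In single-trait fits the coefficient was -0.29 in LMA arrays (limma adjusted p = 4.56e-04), which had no part in the choice, and -0.21 in BF arrays. It was -0.20 in female and -0.31 in male arrays.

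The dyes were balanced within the 24 LMA litters, where the high pigs always carried different dyes, but not in all BF litters. By the labels, the high pigs carried different dyes in 11 BF litters and the same in 9. The latter do not follow the scheme in the study's methods, by which the high male and high female of a litter differ in dye, while the digits of the values follow the labels on all 88 arrays. The mean of the litter means was 0.19 ± 0.31 (SD, n = 11) in the former, with 10 above 0, and 0.36 ± 0.45 (SD, n = 9) in the latter, with 7 above 0. Litter 122, the highest, was one of those with Cy3 on both high pigs. Without a dye term the BF coefficient was 0.27, with it 0.23 and, over the litters of different dyes together with all LMA litters, a choice made after seeing the data, 0.19.

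**Figure D2:**
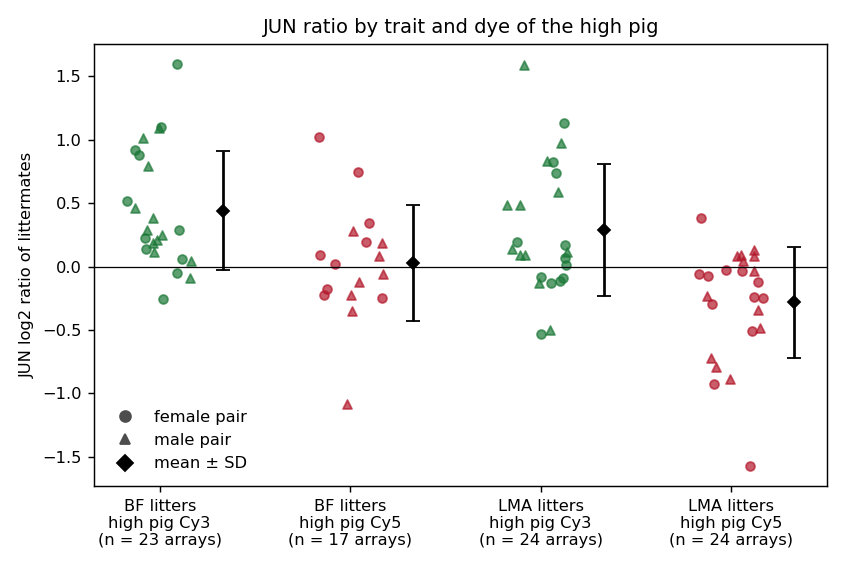
Each point is the log2 ratio of JUN on 1 array (vertical axis), grouped by trait and by the dye of the high pig, with circles for female and triangles for male pairs; diamonds with bars are means ± SD. Arrays whose high pig carried Cy3 lie higher than those with Cy5 in both traits, with means of 0.44 against 0.03 in BF and 0.29 against -0.28 in LMA litters.

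With the dye in the fit, the BF coefficient of JUN, the value for which it was chosen, was 0.23 (standard error 0.07). It was 0.33 in female and 0.12 in male pairs (standard errors 0.10). No spot passed for BF with limma (0 of 20736, 0% at an adjusted p under 0.05), and 772 did at an unadjusted p under 0.05. The number of spots passing stayed at 0 with litter as a block, with array weights, without the 4 wide arrays and without the third of spots of lowest spread. Leaving out 1 litter at a time moved the BF coefficient between 0.19, without litter 122, and 0.27, without litter 88.

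The LMA arrays had no part in the choice of JUN and were tested. The LMA coefficient of JUN was 0.0034 (standard error 0.07, 95% interval -0.13 to 0.14), with an unadjusted p of 0.960 and an adjusted p of 0.9996 by limma. No spot passed for LMA either (0 of 20736, 0%), and 871 did at an unadjusted p under 0.05. The sign of so small a coefficient changed with the setting, from -0.06 in female to 0.07 in male pairs. The difference between the BF and LMA coefficients was not tested, since it holds the contrast that chose JUN.

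The responses of the sexes were compared by their own contrast. In LMA litters the coefficient of male minus female pairs was 0.13 (standard error 0.13, 95% interval -0.13 to 0.40, limma adjusted p = 0.824). In BF litters it was -0.21 (standard error 0.15, 95% interval -0.50 to 0.08, limma adjusted p = 0.999). Neither passed, and both intervals span differences as large as the BF coefficient itself. Over all spots 0 passed for the sex difference in LMA litters (0%) and 0 in BF litters (0%), with 1508 and 887 at an unadjusted p under 0.05.

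No shared deviation of the female and the male pair of a litter was detected. Over 44 litters, the residuals of JUN in females and in males had a Pearson correlation of 0.015 (permutation p = 0.927) and a Spearman correlation of 0.017 (permutation p = 0.911) in the order of high and low pig. Without the 2 litters farthest out, r was -0.08. Within traits r was -0.05 in 24 LMA litters and 0.19 in 20 BF litters (permutation p = 0.826 and p = 0.430). In the order of the dyes r was 0.08 over all litters. Of these 6 relations none passed, each with an adjusted p of 0.927.

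Of all other spots, an unnamed one, spot 13335, followed JUN most closely. Correlations were taken over the 88 arrays on residuals, from which the dye, LMA and BF terms were removed, so the mean shift that chose JUN does not enter them. Spot 13335 had r = 0.823 with JUN (rho = 0.758; permutation p = 1e-05 for both, the smallest that 100000 permutations can give; adjusted p = 0.00518), and its residual had the sign of JUN's on 72 of 88 arrays. Without the 2 arrays farthest out in JUN, r was 0.793. The correlation was 0.784 in LMA and 0.873 in BF arrays, 0.825 in female and 0.824 in male pairs, and 0.790 over the means of 44 litters. The correlation was thus about as high in each trait and sex taken alone. In all correlations with JUN, litter means are of residuals in the order of the dyes. High pigs carried different dyes in 24 LMA and 11 BF litters. There such a mean contrasts the female and the male pair and does not average their ratios of high and low pig. The annotation used here names no gene for this spot. The array carries mismatch control probes, and whether spots 13335 and 15944 are further probes of JUN or controls made from one is not known, so their correlations may be of JUN RNA with itself. Spot 13335 lay in another block of the array, block 31, while JUN lay in block 37. Blocks are inferred here from the order of the spots, as 48 equal runs of 432.

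On the arrays with the highest and lowest JUN ratios, spot 13335 was often, but not always, far out as well. In BF litters JUN and spot 13335 stood at 1.60 and 1.27 in the female pair of litter 122, at 1.09 and 1.06 in the male pair of litter 100 and at -1.09 and -1.13 in the male pair of litter 88. In LMA litters they stood at 1.59 and 1.33 in the male pair of litter 54 and at -1.57 and -1.18 in the female pair of litter 13. It was nearer to 0 than JUN in the female pair of litter 109 (1.10 and 0.45), the female pair of litter 38 (1.14 and 0.67) and the male pairs of litters 63 (-0.89 and -0.30) and 93 (-0.35 and -0.10). In the female pair of litter 90 it was farther out, at -0.93 against -0.26. The signs were opposite in litter 10, with JUN at 0.97 and spot 13335 at -0.12 in males, and -0.93 and 0.10 in females. The SD of the difference between both residuals was 0.25 in BF and 0.31 in LMA arrays, against a residual SD of 0.50 for spot 13335 alone. Spot 13335 had a BF coefficient of 0.24 (standard error 0.08), which is not independent of that of JUN, an LMA coefficient of -0.02 (limma adjusted p = 0.9996) and a dye coefficient of -0.07 (limma adjusted p = 0.233). It therefore did not pass for the dye, as JUN did.

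Spot 15944, also unnamed and 3 positions after JUN in the same block, had the next highest correlation. Its r was 0.666 (rho = 0.612, permutation p = 1e-05, adjusted p = 0.00518) over 88 arrays, 0.613 in LMA and 0.748 in BF arrays, and 0.576 over litter means. Its residual had the sign of JUN's on 63 arrays. It stood at 1.19 in the female pair of litter 122 and at -1.35 in that of litter 13, but at 0.23 in the male pair of litter 54, where JUN was at 1.59. Its dye coefficient was 0.06 (limma adjusted p = 0.334), and it correlated with spot 13335 at 0.620. The other spots beside JUN did not vary with it in this way. PRLR, the prolactin receptor, had r = 0.024, RPN2, a subunit of the enzyme that attaches N-linked sugars, r = 0.128, and GLRB, a glycine receptor subunit, r = -0.026. The median size of r in the block of JUN was 0.092, against 0.087 over all spots.

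The lowest correlations were those of the unnamed spots 16956 and 15835. The former had r = -0.564 (rho = -0.486, permutation p = 1e-05, adjusted p = 0.00518), with -0.495 in LMA and -0.655 in BF arrays and -0.486 over litter means (adjusted permutation p = 0.123). The latter had r = -0.499 (rho = -0.435, permutation p = 1e-05, adjusted p = 0.00518), with -0.523 in LMA and -0.464 in BF arrays and -0.497 over litter means (adjusted permutation p = 0.116), and lay in the block of JUN. Neither thus passed over the means of litters, as spots 13335 and 15944 did (adjusted permutation p = 0.0189 and p = 0.0415). These spots correlated with each other at 0.619. Apart from spots 13335 and 15944, no spot had an r above 0.572.

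**Figure D3:**
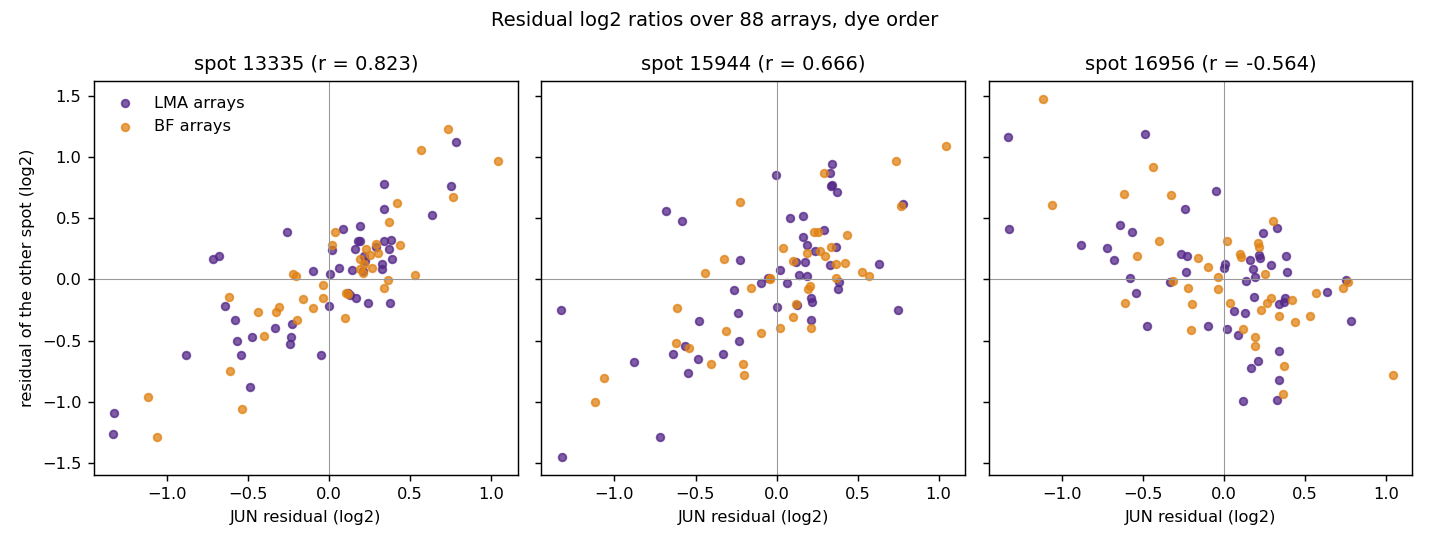
Residual log2 ratios of spots 13335, 15944 and 16956 (vertical axes) are plotted against those of JUN (horizontal axis) for 88 arrays in the order of the dyes, with LMA arrays in purple and BF arrays in orange. The points of spot 13335 lie closest to a line (r = 0.823), those of spot 15944 scatter more (r = 0.666), and those of spot 16956 fall as JUN rises (r = -0.564).

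In all, 206 of 20735 spots (0.993%) passed for a correlation with JUN at a permutation p adjusted over all spots, 133 with a positive and 73 with a negative r, and 2336 had an unadjusted p under 0.05. The smallest size of r among them was 0.363. They came from 47 of the 48 blocks. Many were spots of wide spread, with 126 of 206 among the 25% of spots with the largest residual SD, and 70 passed for the dye, a smaller share than the 61.1% of all spots. With the 48 LMA arrays alone 0 passed (1495 at an unadjusted p under 0.05) and with the 40 BF arrays alone 117 did, of which 63 were among the 206. The permutations are also coarse for so many spots, as only 1 spot, spot 13335, reached the smallest p in LMA arrays, where its adjusted permutation p was 0.207. Arrays of a litter were taken as exchangeable. Over the 44 litter means in the order of the dyes 20 spots passed, 16 of them among the 206. These means cannot show whether the mean ratio of high and low pig in a litter varied with JUN.

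Of the 177 other named spots, 0 passed for a correlation with JUN over all spots and 0 adjusted over the named spots alone. An unadjusted permutation p under 0.05 was found for 14 of them, a smaller share than the 2336 of 20735 over all spots. The closest was ACBD3, a Golgi protein that binds acyl-CoA, with r = 0.366 (rho = 0.332, permutation p = 5.6e-04, adjusted p = 0.0538 over all spots). It was 0.284 in LMA and 0.472 in BF arrays. This spot lay at the threshold, since its adjusted permutation p was 0.0259 without the 4 wide arrays, 0.0225 without the 2 arrays farthest out in JUN and 0.0355 with arrays scaled to a common spread. ACBD3 itself had an LMA coefficient of 0.0031 and a BF coefficient of 0.02 (standard error 0.04).

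The 10 named spots nearest to JUN by size of r included 2 of the 3 muscle markers with a spot, LMCD1 and MYOD1, and neither passed; the third, MYH7, the myosin of slow fibers, had r = -0.082. LMCD1, a LIM domain protein of striated muscle, had r = 0.287 and, at a residual SD of 0.999, one of the widest spreads on the array, above 99.8% of spots. MYOD1, the transcription factor that commits cells to the muscle lineage, had r = 0.270, with 0.248 in LMA and 0.317 in BF arrays. Like many spots, it shared with JUN a negative dye coefficient (-0.17, limma adjusted p = 0.00405). CA11, a protein related to carbonic anhydrases, had r = 0.283, and OPALIN, a membrane protein of oligodendrocytes, r = 0.251. On the negative side stood SAL1, a salivary lipocalin that binds pheromones in pigs, at -0.289 and QDPR, which regenerates the cofactor tetrahydrobiopterin, at -0.280. SULT1E1, the estrogen sulfotransferase, was at -0.279, RXFP4, a receptor of relaxin family peptides, at -0.266 and HYAL3, of the hyaluronidase family, at -0.264. Apart from ACBD3, the adjusted permutation p-values of these spots lay between 0.194 and 0.299, so none of these relations passed over the 88 arrays. LMCD1 did so without the 4 wide arrays (r = 0.360, adjusted permutation p = 0.0470) and SULT1E1 with arrays scaled to a common spread (r = -0.357, adjusted permutation p = 0.0417). QDPR had r = -0.494 in BF and -0.101 in LMA arrays, a difference that was not tested.

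**Figure D4:**
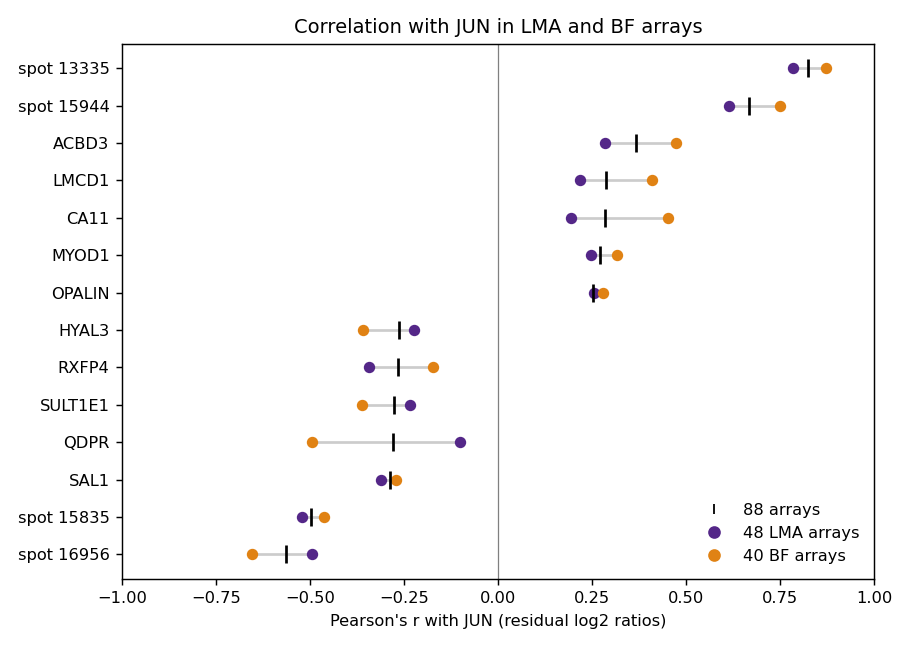
Pearson's r with JUN on residual log2 ratios (horizontal axis) is shown for 4 unnamed and 10 named spots, with black ticks for 88 arrays, purple points for 48 LMA arrays and orange points for 40 BF arrays. The 4 unnamed spots lie farthest from 0, at 0.823 and 0.666 on one side and -0.564 and -0.499 on the other.

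The pathway around JUN was hardly covered by named spots. Of 20 AP-1 subunits and partners searched for, JUN was the only 1 with a named spot, so neither FOS, its main partner, nor its relatives JUNB and JUND could be set beside it. None of 19 kinases and regulators of JUN, 24 AP-1 target genes or 15 stress and heat shock genes had one. Of 27 immediate early genes, KLF4, a transcription factor induced by serum and stress, had r = 0.174 with JUN (permutation p = 0.104). It was 0.258 in LMA and 0.0033 in BF arrays, and the difference was not tested. KLF4, like many spots, passed for the dye in the same direction as JUN (-0.10, limma adjusted p = 6.71e-04), and its BF coefficient was 0.0019 (standard error 0.04).

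No marker of another cell type passed for a correlation with JUN on residuals. Of the adipocyte markers 3 of 10 had a named spot. RETN, the hormone resistin, had r = -0.144, ADIG, a small protein of fat cells, r = -0.126, and PLIN1, the coat protein of lipid droplets, r = -2e-04. The other lists were as sparse. HBE1, an embryonic globin and the only 1 of 4 blood markers, had r = -0.081. Of 11 immune markers 4 had a spot, and the median size of r was 0.093. NPG4, a protegrin of neutrophils, was at -0.216, PSMB8, a subunit of the immunoproteasome, at -0.103, TYROBP, a signaling adaptor of myeloid and natural killer cells, at 0.068, and CD4, the coreceptor of helper T cells, at 0.083. None of the 5 endothelial and 5 fibroblast markers had a named spot. Whether cell mixture had a part in the JUN ratios was not tested, since these few ratios are not levels.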

How the data were processed

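From GenePix median intensities, with no background subtracted, the authors made log2 ratios by print-tip lowess within slides followed by scaling. The deposited table, with 1 ratio per spot and array and no pooling of pigs, was used unchanged. All 88 value columns were used, and no value was missing. Litter, sex, trait and the dye of the high pig came from the labels. JUN, its lists of related genes and all tests were chosen with earlier results of these data known. Control spots were not told apart and stayed in. Sequences and genome positions were not used here.

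The sign was turned wherever the high pig had the Cy3 label, and limma 3.58.1 (lmFit and eBayes) in R 4.3.3 fitted a dye intercept, an LMA and a BF term to every spot, with Benjamini-Hochberg adjustment over all spots at 0.05. Sex differences were contrasts of a fit with trait by sex. Correlations with JUN were computed in Python 3.11.15 with 100000 two-sided permutations of the arrays. Beside JUN, the 10 named spots of largest absolute r, the 2 highest and 2 lowest unnamed spots, every listed gene with a spot, and the 3 highest and 3 lowest arrays of each trait were to be named; the values of neighbouring spots, of further litters and of the arrays of wide ratios were added after seeing the data. The fit and the correlations were tested on simulated data.

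Arrays of a litter share their parents. The consensus correlation of a litter's arrays over spots was 0.126, with ratios in the order of the dyes. High pigs carried different dyes in 24 LMA and 11 BF litters. There a positive value means that the female and the male ratio of high and low pig deviated in opposite directions. This value is therefore no measure of likeness from shared parents. A fit with the litter as a random replicate block was one of the alternatives. The others were single traits or sexes, no dye term, array weights, other scalings, robust regression, the removal of spots of low spread, and leaving out arrays or litters. Litters were taken as independent, although the cross had few sires per the study's methods, so many litters must share a sire. The labels used here do not give it, and its effect was not tested. The p-values of the correlations take all arrays as exchangeable, which arrays of a litter may not be.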

Additional observations from a re-analysis of the deposited data

How the results depend on the processing

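The dye coefficient of JUN kept its sign and passed in every alternative run, and neither sex difference passed in any. The BF coefficient, for which JUN was chosen, stayed positive in every alternative. All of these reuse BF arrays, so the kept sign is no independent check. It was lowest in male arrays, at 0.11 (standard error 0.10). Over the litters of different dyes together with all LMA litters it was 0.19 (standard error 0.10). With the litter as a random replicate block, the coefficients of JUN were -0.25 for dye, 0.0034 for LMA and 0.22 for BF. In that fit 12225 spots passed for dye, and no call on JUN changed. Its standard error for the LMA coefficient was smaller than in the main fit (0.0633 against 0.0675), so it was no stricter check of that coefficient. The LMA coefficient, near 0 and not passing in any setting, turned negative in female arrays (-0.063), with array weights (-0.041), with arrays scaled by their median absolute deviation (-0.00714), with quantile normalization (-0.0135) and without the 4 wide arrays (-0.0112). Leaving out 1 litter at a time gave -0.0256 (without litter 54) to 0.0348 (without litter 13). Without the spots of lowest spread, 7538 spots passed for dye, of fewer tested.

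The number of spots correlated with JUN moved most: it was 20 over litter means in the order of the dyes, 0 in LMA, 117 in BF, 6 in female and 0 in male arrays, 375 without the wide arrays, 379 after scaling by median absolute deviation and 5924 with no term removed, where the dye stays in the ratios. Within litters, r was -0.0782 without the 2 litters farthest out. The correlation of spots 13335, 15944, 16956 and 15835 with JUN kept its sign in every alternative. Spots 16956 and 15835 did not pass over litter means, spot 15835 not in BF or female arrays, and none of the 4 in LMA or male arrays. In male arrays, as in LMA arrays, only spot 13335 reached the smallest p. Its adjusted permutation p of 0.207 there, at r = 0.824, was limited by the number of permutations. With no term removed, LMCD1, CA11, QDPR, MYOD1, KLF4 and HBE1 passed. In that setting HBE1 changed sign to 0.2997 (adjusted permutation p = 0.0233). Without passing, r also changed sign there to 0.00799 for SAL1, 0.123 for SULT1E1, 0.173 for RXFP4 and 0.0792 for HYAL3. It did so too to -0.139 for OPALIN, 0.142 for RETN and 0.149 for ADIG. Other reversals, none of which passed in the setting named, were MYH7 at 0.026 over litter means and HBE1 at 0.018 in male arrays, RETN at 0.00622 in LMA arrays, ADIG at 0.222 in BF arrays, CD4 at -0.023 in BF and -0.084 in female arrays, and TYROBP at -0.183 over litter means and -0.00375 in BF arrays. PLIN1 was at 0.0604 by Spearman's rho, 0.113 over litter means, 0.228 in BF arrays, 0.035 in female arrays, 0.0555 without the 2 arrays farthest out and 0.0072 after scaling. The cause was not tested.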
